A study of Homo sapiens with 12 samples.

Results

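The MuvB core complex, the MYB proteins that bind it and the forkhead factor FOXM1 were followed as a group of 8 genes among the 59251 genes of an RNA-Seq count table. The 8 genes were chosen by name, with no threshold on their values, though earlier results of these data were known: MYBL2 (which encodes B-MYB), MYBL1 (A-MYB), FOXM1, and the MuvB subunit genes LIN9, LIN37, LIN52, LIN54 and RBBP4. All 8 were found in the table, and 7 of them were among the 13318 genes with enough counts to be tested; MYBL1, with 61 counts in all, was not. The cells were HL60, a human acute myeloid leukemia line without the PML-RARA fusion, grown in serum-containing medium. The groups were non-treated cells and cells kept for 48 h in 1 µM ATRA (all-trans retinoic acid, a ligand of the retinoic acid receptor), in 1 µM CDK4/6i (palbociclib, an inhibitor of the G1 kinases CDK4 and CDK6) or in the combination of these, called CDK4/6i+ATRA. Each group had 3 libraries, labelled as biological replicates, for 12 in all, and every result therefore describes a single cell line at a single time and dose.

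MuvB is a scaffold that switches partners through the cell cycle. In resting cells it joins a pocket protein (p130 or p107), E2F4 or E2F5 and a DP protein to form the DREAM complex, which represses cell cycle genes. In proliferating cells the same core leaves the pocket protein and takes up B-MYB and then FOXM1, which activate genes needed for G2 and mitosis. LIN9 contacts B-MYB, LIN52 holds either the pocket protein or B-MYB, LIN54 contacts a DNA element called the cell cycle genes homology region (CHR), LIN37 is needed for repression, and RBBP4 is a histone-binding protein that also serves in several chromatin complexes. CDK4 and CDK6 phosphorylate the pocket proteins and FOXM1, so their inhibition acts on this switch from the G1 side. These statements are general background and not results of the data.

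Promoter sequences show the DNA letters that these complexes are known to read. They were taken from RefSeq (GRCh38.p14), where 6 of the 8 genes matched by symbol (MYBL2, LIN9, LIN37, LIN52, LIN54 and RBBP4). The letters searched on both strands were TTTGAA and TTCGAA (CHR), CCAAT (the box bound by NF-Y), the E2F letters TTTCGCGC, TTTGGCGC and TTTCCCGC, and GGCGGGA, which was added after the sequences had been seen and overlaps TTTCCCGC read on the other strand. The 250 bases before the start of MYBL2, the gene with the largest fall of the tested 7 with both drugs against non-treated cells, are given beside those of LIN37, the gene that did not fall, and those of CCNB2, which encodes cyclin B2 and serves as a textbook target of the complexes. Capitals mark the letters found.
MYBL2 (chr20:43666864-43667113, plus strand): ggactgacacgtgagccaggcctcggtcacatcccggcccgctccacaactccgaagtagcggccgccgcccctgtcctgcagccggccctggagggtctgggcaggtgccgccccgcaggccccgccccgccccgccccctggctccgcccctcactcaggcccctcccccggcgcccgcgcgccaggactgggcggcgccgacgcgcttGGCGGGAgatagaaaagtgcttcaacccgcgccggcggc
LIN37 (chr19:35748326-35748575, plus strand): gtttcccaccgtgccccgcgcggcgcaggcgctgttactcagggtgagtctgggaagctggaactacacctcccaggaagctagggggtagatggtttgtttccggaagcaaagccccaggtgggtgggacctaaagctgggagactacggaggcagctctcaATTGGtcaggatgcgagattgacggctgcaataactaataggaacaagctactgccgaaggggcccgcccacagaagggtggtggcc
CCNB2 (chr15:59104896-59105145, plus strand): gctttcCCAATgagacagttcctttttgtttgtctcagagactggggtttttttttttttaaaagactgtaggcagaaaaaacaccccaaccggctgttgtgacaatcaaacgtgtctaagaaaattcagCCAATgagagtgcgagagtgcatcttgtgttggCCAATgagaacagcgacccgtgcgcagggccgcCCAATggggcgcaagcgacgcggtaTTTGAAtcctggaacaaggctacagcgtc
LIN9 around its TTCGAA (chr1:226309207-226309236, minus strand): gcgagctccgcaTTCGAAcctccctcgcaa

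Counted with −1 as the last base before the start, CCNB2 held TTTGAA at −29 and CCAAT at −244, −120, −87 and −54. MYBL2 held GGCGGGA at −39 and neither a CHR nor CCAAT in the window. LIN37 held CCAAT on the opposite strand at −87 of the start shown, and TTTGAA at −182 and GGCGGGA on the opposite strand at −162 of another listed start (35748814). LIN9 is listed with 3 starts: the stretch shown belongs to the most downstream of them (226309164), which held TTCGAA at −60 and TTTGAA at −3 and lies inside an exon of longer LIN9 forms. This LIN9 start also held GGCGGGA at −104 and, on the opposite strand, at −217. LIN54 held TTTGAA at −100 and GGCGGGA at −82 of a start at 83010823. LIN52 held TTTCCCGC at −25, GGCGGGA overlapping it on the opposite strand at −23, and CCAAT on the opposite strand at −246. RBBP4 held CCAAT at −105 and −54 and GGCGGGA at −76 of its most upstream start, all on the opposite strand. Of all 35116 promoters in RefSeq of the same 300 bases (250 before and 50 after the start), the share with TTTGAA was 15.2%, with TTCGAA 1.45%, with CCAAT 34.6% and with GGCGGGA 15.4%. The E2F letters TTTCGCGC, TTTGGCGC and TTTCCCGC were found in 0.515%, 0.652% and 1.63%. A match of letters is a description and does not show that a factor was bound.

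Total counts per library ranged from 12230923 to 18679544, and all 3 CDK4/6i+ATRA libraries were below those of the other groups (at most 14415276, against at least 15238994). Levels are given as CPM (counts scaled to a common library total) after trimmed-mean (TMM) normalization. On this scale a floor of 3 counts corresponded to 0.156 to 0.275 CPM. MPO, the myeloperoxidase of promyelocytes, was at 6340 to 6670 CPM in non-treated cells, 268 to 322 with ATRA, 3410 to 3540 with CDK4/6i and 24.5 to 33.9 with CDK4/6i+ATRA. The summed level of the 6 promyelocytic markers was 6470 to 6800 CPM in non-treated cells and 225 to 263 with CDK4/6i+ATRA, and nearly all of it in non-treated cells was MPO. The sum rests on 3 of the 6 genes (MPO, CSF3R and CD33). CSF3R went the other way, from 37.3 to 41.3 CPM in non-treated cells to 106 to 126 with CDK4/6i+ATRA, and CD33 was at 91.9 to 96.7 and 93.8 to 103 CPM. ELANE, PRTN3 and AZU1 had no count in any library, and the table lists each of these 3 on 2 contigs of the genome. Whether reads from genes on 2 contigs were lost in the counting was not tested. The summed markers of T cells reached at most 3.1 CPM, of erythroid cells 0.117, of epithelial cells 0.0627 and of fibroblasts 0.233, where COL3A1 is likewise listed on 2 contigs without a count. Among the B-cell markers CD79A was at 12.3 to 24.7 CPM and MS4A1 at 0, and the megakaryocyte marker ITGA2B reached 9.99 CPM with PF4 at 0. The part of these marker changes in the changes below was not tested. In bulk RNA, fewer cells expressing a gene and less RNA of it per cell cannot be told apart.

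Per kilobase of exon, MYBL2 was the most abundant of the 8 mRNAs in non-treated cells, at 142 ± 6.71 CPM per kilobase (SD, n = 3). RBBP4 followed at 41.5 ± 1.72, FOXM1 at 21.1 ± 0.494 and LIN9 at 5.96 ± 0.0925. LIN37 (4.97 ± 0.757) and LIN54 (4.78 ± 0.094) overlapped across libraries. LIN52 was lower at 1.28 ± 0.109, over the longest annotated exon length of the 8 (9698 bases), and MYBL1 lowest at 0.0833 ± 0.00975. With CDK4/6i+ATRA the order was different: RBBP4 came first at 19.2 ± 0.368 CPM per kilobase, then LIN37 at 6.55 ± 0.152, LIN54 at 3.12 ± 0.353 and MYBL2 at 1.98 ± 0.641. LIN52 (0.639 ± 0.145), LIN9 (0.498 ± 0.144) and FOXM1 (0.346 ± 0.0839) stood next, each overlapping its neighbour across libraries. With CDK4/6i alone RBBP4 was first and MYBL2 second, at 27.8 ± 0.364 and 7.57 ± 0.349 CPM per kilobase, and with ATRA alone the leading 3 kept the order of non-treated cells. The plot of levels by library shows these groups.

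**Figure D1:**
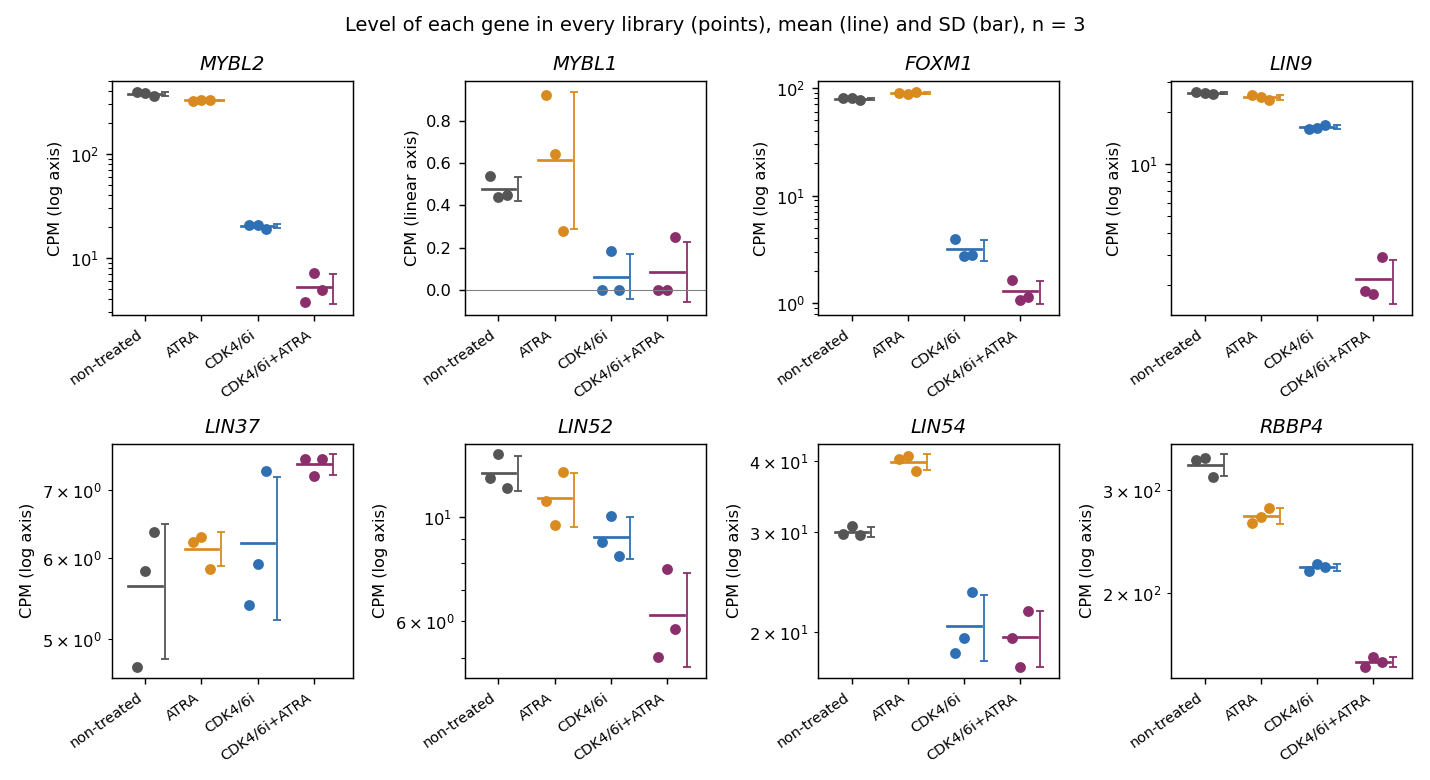
Level of each of the 8 genes in CPM (log axis, linear for MYBL1) in the 4 groups of HL60 cells, with each library as a point, the mean as a line and the SD as a bar (n = 3, drawn where it is smaller than the mean, and always for MYBL1). MYBL2 and FOXM1 drop with CDK4/6i and again with CDK4/6i+ATRA, LIN9 drops mainly with both drugs, and LIN37 does not drop.

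The MYB genes were led by MYBL2. B-MYB binds MuvB in S phase and G2. In non-treated cells MYBL2 was at 393.3, 385.7 and 359.2 CPM, and with ATRA at 322.7, 330.7 and 330.3 CPM. CDK4/6i took it to 20.64, 20.84 and 19.13 CPM, and CDK4/6i+ATRA to 3.758, 7.131 and 4.958 CPM. No group of libraries overlapped another. CDK4/6i alone left 5.33% ± 0.246 (SD, n = 3) of the non-treated level and both drugs left 1.39% ± 0.451. The log2 fold change against non-treated cells was −0.21 ± 0.0406 (SE) with ATRA, −4.23 ± 0.0552 with CDK4/6i and −6.16 ± 0.0753 with both drugs. Here and below, SEs were derived from the F statistic and can be too small for large falls. Leaving out each library in turn gave −6.44 to −5.98 with both drugs. The adjusted p-values in edgeR's quasi-likelihood F test with Benjamini-Hochberg adjustment over the 13318 genes were 1.1e-05, 2.5e-47 and 6.3e-50. ATRA added to CDK4/6i lowered MYBL2 by a further 3.82-fold (log2 fold change −1.93 ± 0.115, edgeR adjusted p = 8.8e-21), whereas ATRA alone lowered it 1.16-fold.

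MYBL1, the A-MYB gene best known from germ cells, was near the limit of detection. The raw counts were 9, 7 and 8 in non-treated cells, 15, 11 and 5 with ATRA, 0, 3 and 0 with CDK4/6i and 0, 0 and 3 with CDK4/6i+ATRA. The counts in both CDK4/6i-treated groups thus came from 1 library each, and all lay below those of non-treated cells. Relative to non-treated cells the ratio of pooled counts was 1.26 with ATRA (95% exact interval 0.718 to 2.25), 0.119 with CDK4/6i (0.023 to 0.393) and 0.184 with CDK4/6i+ATRA (0.0354 to 0.605), where the intervals cover counting error only. Without the filter on low counts, edgeR gave MYBL1 an adjusted p of 0.00274 with CDK4/6i, 0.0125 with both drugs and 0.759 with ATRA.

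FOXM1, the forkhead factor that joins B-MYB and MuvB before mitosis, also fell with CDK4/6i and again with both drugs, but rose with ATRA alone. It was at 80.05, 79.58 and 76.65 CPM in non-treated cells and, with ATRA, at 88.93, 87.1 and 91.71 CPM. With CDK4/6i it was at 3.941, 2.75 and 2.809 CPM, and with CDK4/6i+ATRA at 1.65, 1.07 and 1.157 CPM, from 18, 12 and 14 reads. The libraries of the 4 groups did not overlap. ATRA raised FOXM1 to 113.3% ± 2.94 (SD, n = 3) of the non-treated mean, CDK4/6i left 4.02% ± 0.853 and both drugs left 1.64% ± 0.397. The fitted log2 change of FOXM1 was 0.18 ± 0.0524 with ATRA (edgeR adjusted p = 0.00216), −4.62 ± 0.0876 with CDK4/6i (adjusted p = 1.2e-40) and −5.93 ± 0.117 with both drugs (adjusted p = 5.6e-41). Between CDK4/6i and CDK4/6i+ATRA it dropped by a further 2.48-fold (edgeR adjusted p = 9.3e-07). Thus ATRA raised FOXM1 in cells without CDK4/6i and lowered it in CDK4/6i-treated cells, and MYBL2 was lowered in both settings. FOXM1 shares 450 exon bases with ITFG2 on the opposite strand (2278 counts over all libraries, against 8772 for FOXM1), and whether reads were counted by strand is not stated.

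LIN9, the subunit that contacts B-MYB, fell mainly when both drugs were combined. It was at 26.38, 25.77 and 25.62 CPM in non-treated cells, at 25.27, 24.6 and 23.59 with ATRA and at 16.02, 16.19 and 16.85 with CDK4/6i. CDK4/6i+ATRA left 1.833, 1.783 and 2.892 CPM. In percent of non-treated cells these means were 94.45% ± 3.26, 63.09% ± 1.69 and 8.37% ± 2.42 (SD, n = 3). The change with ATRA did not pass the test (log2 fold change −0.08 ± 0.0785, edgeR adjusted p = 0.355), although its 3 libraries lay below the non-treated ones. CDK4/6i lowered LIN9 1.58-fold (edgeR adjusted p = 1.4e-09) and both drugs lowered it 11.8-fold (adjusted p = 6.5e-29). If the single-drug fold changes had multiplied, 59.5% of the non-treated level would have remained, against 8.47% in the fit. This departure, the interaction of the drugs, was −2.81 ± 0.17 on the log2 scale (edgeR adjusted p = 1.5e-19).

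LIN54, the DNA-contacting subunit, rose with ATRA and fell with CDK4/6i. Its levels were 29.81, 30.73 and 29.62 CPM in non-treated cells and 40.31, 40.87 and 38.4 CPM with ATRA. They were 18.36, 19.56 and 23.58 CPM with CDK4/6i and 19.52, 17.38 and 21.82 CPM with CDK4/6i+ATRA. The latter groups overlapped each other and lay below all non-treated libraries. On the log2 scale LIN54 changed by 0.41 ± 0.073 with ATRA, −0.55 ± 0.0794 with CDK4/6i and −0.61 ± 0.0863 with both drugs (edgeR adjusted p = 2.9e-06, 4.3e-08 and 1.1e-08). Between CDK4/6i+ATRA and CDK4/6i the difference was −0.06 ± 0.0906 (edgeR adjusted p = 0.548), and it passed the threshold with libraries scaled by their size alone (−0.34, adjusted p = 0.00142).

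LIN52 carries the phosphorylation site through which the kinase DYRK1A favours the pocket protein over B-MYB. It was at 12.14, 13.61 and 11.55 CPM in non-treated cells, 10.85, 9.62 and 12.49 with ATRA, 8.868, 10.08 and 8.251 with CDK4/6i and 5.041, 7.755 and 5.785 with CDK4/6i+ATRA. The ATRA libraries overlapped the non-treated ones, and those of both CDK4/6i-treated groups did not. LIN52 fell 1.37-fold with CDK4/6i (edgeR adjusted p = 0.00129) and 2-fold with both drugs (adjusted p = 1.4e-08), and the interaction of −0.37 ± 0.191 did not pass the test (adjusted p = 0.0987). That interaction passed under 4 alternatives in edgeR: without ATRA replicate 2 (−0.47, adjusted p = 0.0452), without CDK4/6i+ATRA replicate 2 (−0.57, adjusted p = 0.0178), without the filter on low counts (−0.46, adjusted p = 0.0483) and with library size alone (−0.69, adjusted p = 0.00238).

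LIN37 did not fall in any comparison. In non-treated cells it was at 4.688, 5.832 and 6.364 CPM, and with CDK4/6i at 5.393, 5.928 and 7.315 CPM. With ATRA it was at 6.225, 6.297 and 5.856 CPM, and with CDK4/6i+ATRA at 7.516, 7.22 and 7.52 CPM, above every non-treated library. With either drug alone the LIN37 libraries overlapped the non-treated ones, and the change did not pass the test (log2 fold change 0.12 ± 0.15 with ATRA and 0.14 ± 0.149 with CDK4/6i, edgeR adjusted p = 0.495 and 0.459). With both drugs it was higher by 0.40 ± 0.156 on the log2 scale (edgeR adjusted p = 0.0186). That call was lost without non-treated replicate 1 (0.27, adjusted p = 0.128), with library size alone (0.13, adjusted p = 0.447) and without the filter (0.29, adjusted p = 0.14).

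RBBP4, the histone-binding subunit, fell with each drug and further with both. It was at 337.1, 339.6 and 314.8 CPM in non-treated cells, 263.6, 269 and 279.4 with ATRA, 218.4, 224.2 and 221.7 with CDK4/6i and 150, 155.8 and 153 with CDK4/6i+ATRA. The 4 groups stood apart in that order. ATRA left 81.91% ± 2.43 (SD, n = 3) of the non-treated mean, CDK4/6i 67% ± 0.877 and both drugs 46.28% ± 0.887. The log2 fold changes were −0.29 ± 0.0367, −0.58 ± 0.0371 and −1.11 ± 0.0396 (edgeR adjusted p = 1.7e-09, 8.1e-19 and 5.1e-30). The interaction was −0.25 ± 0.0544 (edgeR adjusted p = 0.00014), so that 46.3% of the level remained in the fit where multiplied single-drug changes give 54.9%. RBBP4 shares 4309 exon bases with SYNC on the opposite strand, which had 1 count in all, and its most counted pseudogene, RBBP4P2, had 0.549 to 1.08 CPM on average in the 4 groups.

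Across the comparisons the counts for the 7 tested genes read as follows, beside the share of all 13318 tested genes called in the same direction. ATRA lowered 2 genes (MYBL2, RBBP4) and raised 2 (FOXM1, LIN54), where 35.5% of all genes were called lower and 32.1% higher. CDK4/6i lowered 6 of 7 and raised none, against backgrounds of 27.9% and 28.3%. CDK4/6i+ATRA lowered 6 and raised LIN37, against 40.7% and 41.0%. The 7 genes had a median log2 fold change of −0.08 under ATRA, −0.58 under CDK4/6i and −1.11 under both drugs, while that of all tested genes was −0.03, 0.02 and 0.02.

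Compared with CDK4/6i alone, CDK4/6i+ATRA had lower MYBL2, FOXM1, LIN9, LIN52 and RBBP4 (5 of 7, none higher), with 39.5% of all genes lower and 39.1% higher. Against ATRA alone it was lower in 6 of 7, every gene but LIN37, with 32.8% of all genes lower and 36.9% higher. For the interaction, 5 of 7 genes (MYBL2, FOXM1, LIN9, LIN54, RBBP4) were negative and none positive, where 27.0% of all genes were negative and 24.5% positive. The comparisons share control libraries and are not independent of each other. The split of all called genes depended on the scaling: with library size alone it was 6554 lower and 3805 higher against CDK4/6i (5261 and 5212 with TMM). Against non-treated cells CDK4/6i+ATRA had 6431 lower and 4376 higher (5424 and 5461 with TMM). Against ATRA it was 6412 and 2956 (4371 and 4920 with TMM), and for the interaction 6061 and 1375 (3594 and 3258 with TMM). The median of all genes moved with it, from −0.02 to −0.34 for the interaction and from 0.02 to −0.25 for both drugs together against no treatment. With library size alone the interaction was −3.13 for LIN9, −2.04 for MYBL2, −1.81 for FOXM1, −0.79 for LIN54 and −0.57 for RBBP4, and all 5 passed the test under both scalings.

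**Figure D2:**
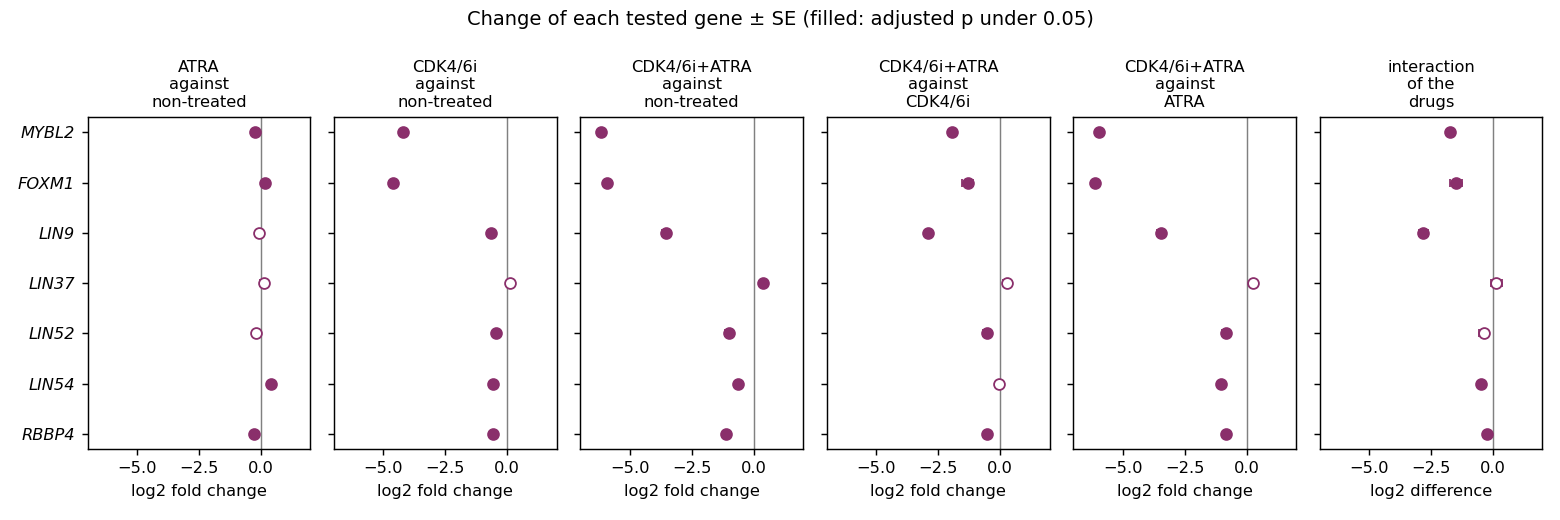
Log2 fold change of the 7 tested genes in each comparison, and the interaction of the drugs as a log2 difference, with the SE as a bar and filled points for an adjusted p under 0.05 (edgeR, 3 libraries per group). The SE was derived from the F statistic and can be too small for large falls. MYBL2 and FOXM1 lie below −4 with CDK4/6i and LIN9 lies near −0.66, whereas with both drugs LIN9 reaches −3.56.

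The ratio of MYBL2 to RBL2 mRNA compares a cycling with a resting partner of MuvB within each library and does not depend on how libraries are scaled. RBL2 encodes p130, the main pocket protein of DREAM. Per kilobase the ratio was 8.3, 8.4 and 7.69 in non-treated cells and 6.46, 6.5 and 6.24 with ATRA. With CDK4/6i it was 0.395, 0.376 and 0.362, and with CDK4/6i+ATRA 0.102, 0.206 and 0.132. MYBL2 thus exceeded RBL2 in every library without CDK4/6i and was below it in every library with CDK4/6i. From non-treated cells the log2 ratio differed by −0.34 under ATRA, by −4.43 under CDK4/6i and by −5.86 under both drugs, and by −1.43 between CDK4/6i+ATRA and CDK4/6i. In each comparison all 3 libraries were lower, and the two-sided exact permutation p was 0.1, the smallest that 3 against 3 libraries allow.

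**Figure D3:**
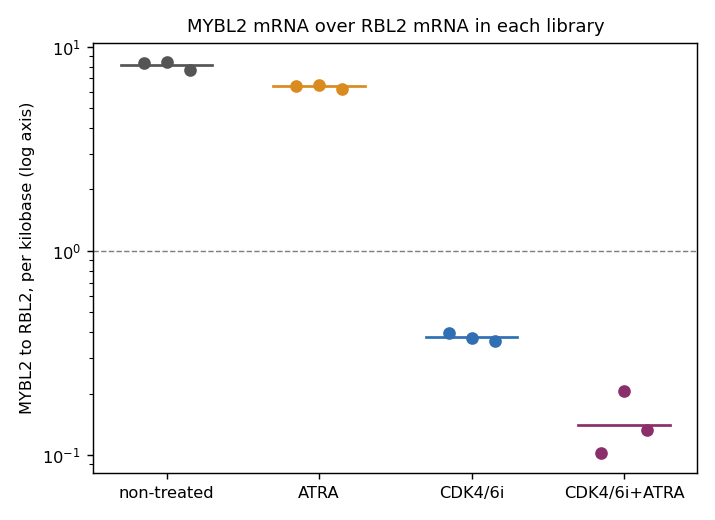
Ratio of MYBL2 to RBL2 mRNA per kilobase of exon (log axis) in each library (points), with the geometric mean of each group as a line and the dashed line at equal levels. The ratio sits near 8.12 in non-treated and 6.4 in ATRA-treated cells, and near 0.377 and 0.14 with CDK4/6i and CDK4/6i+ATRA.

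Among the 7 DREAM partners, all tested, 4 were lower and 2 higher with CDK4/6i (median log2 fold change −0.31), where 27.9% and 28.3% of all genes were, and 6 were lower and 1 higher with CDK4/6i+ATRA (median −0.87), where 40.7% and 41.0% of all genes were. Both pocket proteins moved apart with CDK4/6i. RBL1, which encodes p107 and is itself an E2F target, was lower at a log2 fold change of −2.42 with CDK4/6i and −3.89 with both drugs. RBL2 was higher with CDK4/6i and lower with both drugs, at log2 fold changes of 0.20 ± 0.0439 and −0.36 ± 0.0483 (edgeR adjusted p = 0.00014 and 4.3e-09). E2F4, the main DREAM E2F, was lower in both (−0.18 and −0.37), as was its partner TFDP1 (−0.90 and −2.48). TFDP2, the other DP gene, was higher by 0.35 with CDK4/6i and lower with both drugs (−0.87). DYRK1A, the LIN52 kinase, was lower with CDK4/6i (−0.31) and higher with ATRA (0.53) and with both drugs (0.59). E2F5 had 38, 32 and 29 counts in non-treated cells, 2, 5 and 6 with ATRA, 27, 26 and 26 with CDK4/6i and 3, 1 and 1 with CDK4/6i+ATRA. Its log2 difference with CDK4/6i alone (−0.39) did not pass the test (edgeR adjusted p = 0.287). In ATRA-treated cells 4 of the 7 were lower and 2 higher (median −0.40), beside 35.5% and 32.1% of all genes. For CDK4/6i+ATRA against ATRA alone 3 of the 7 were lower, beside 32.8% of all genes. With library size alone it was 6 of the 7, beside 6412 of all 13318 genes.

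The kinases, cyclins and ligase subunits that act on B-MYB or FOXM1 fell with CDK4/6i in 10 of 10 cases (median log2 fold change −2.68, beside 27.9% of all genes called lower) and with both drugs in 9 of 10 (median −4.23, beside 40.7%). The list shares CDK1, CCNA2, CCNB1 and PLK1 with the G2/M genes below and CCNE1 and CCNE2 with the G1/S genes, so the counts of these lists are not separate results. Cyclin A and its kinase phosphorylate and activate B-MYB and FOXM1. CCNA2, the cyclin A gene, was lower with both drugs at a log2 fold change of −5.98, and CDK1, the mitotic kinase, at −4.67 with CDK4/6i and −6.04 with both drugs. PLK1, a mitotic kinase that activates FOXM1, was at −3.22 and −5.38. CCNE1, the G1 cyclin that partners CDK2, was at −0.99 with CDK4/6i and −4.64 with both drugs, with an interaction of −3.26 ± 0.179 (edgeR adjusted p = 3.6e-21). CCNF and SKP2, which encode F-box subunits of ubiquitin ligases, were at −5.48 and −3.15 with both drugs. FZR1, which encodes the CDH1 activator of the anaphase-promoting complex and marks FOXM1 for degradation, was the exception, with log2 fold changes of −0.68 with CDK4/6i, 0.56 with ATRA and 0.16 with both drugs (edgeR adjusted p = 1.7e-13, 1.7e-12 and 0.0144). The rise with both drugs was smaller than the shift of the median of all genes between scalings (0.02 with TMM, −0.25 with library size alone). With ATRA alone 6 of the 10 were higher and 3 lower (median 0.19), beside 32.1% and 35.5% of all genes.

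The G2/M genes that B-MYB, MuvB and FOXM1 are known to bind were lower in 48 of 48 cases both with CDK4/6i (median log2 fold change −2.87) and with CDK4/6i+ATRA (median −5.22), where 27.9% and 40.7% of all genes were lower. Against CDK4/6i alone 46 of 48 were lower with both drugs (median −2.09, beside 39.5% of all genes), and the interaction was negative in 48 of 48 (median −2.39, beside 27.0%). With ATRA alone 35 were higher, 3 lower and 10 did not pass the test (median 0.30), beside 32.1% of all genes higher and 35.5% lower. ANLN, a scaffold of the cleavage furrow, and HJURP, the chaperone of centromeric histone CENP-A, rose with ATRA (0.71 and 0.49 on the log2 scale) and fell with both drugs (−6.01 and −6.82). TTK and BUB1B, kinases of the spindle checkpoint, had the most negative interactions of the list (−3.94 ± 0.134 and −3.77 ± 0.151, edgeR adjusted p = 3.1e-29 and 1.6e-26). CDCA3 had 565, 559 and 621 counts in non-treated cells and 4, 2 and 0 with CDK4/6i+ATRA.

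The G1/S genes that DREAM reaches through E2F were lower in 28 of 28 cases with CDK4/6i (median −2.64, beside 27.9% of all genes) and with CDK4/6i+ATRA (median −4.74, beside 40.7%). Their response to ATRA alone had the opposite balance to that of the G2/M genes, with 20 lower and 4 higher (median −0.35), beside 35.5% and 32.1% of all genes. The interaction was negative in 27 of 28 (median −1.57), beside 27.0%. MCM4, a subunit of the replicative helicase, and CDC6, which helps to load it at origins, fell with CDK4/6i (−2.59 and −2.69 on the log2 scale) and with both drugs (−6.05 and −5.97). GINS2, a subunit of the GINS complex that joins this helicase, was at −4.10 and −6.68. POLE2, a subunit of DNA polymerase epsilon, had 448, 462 and 488 counts in non-treated cells and 1 count in each CDK4/6i+ATRA library. MYBL2 (−0.21) and FOXM1 (0.18) differed in sign with ATRA, as the medians of these lists did. The genes most correlated with each over the libraries nonetheless came from both lists (CCNA2 and PRIM1 for MYBL2, CDK1 and TK1 for FOXM1). The plot of the lists shows the balance.

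**Figure D4:**
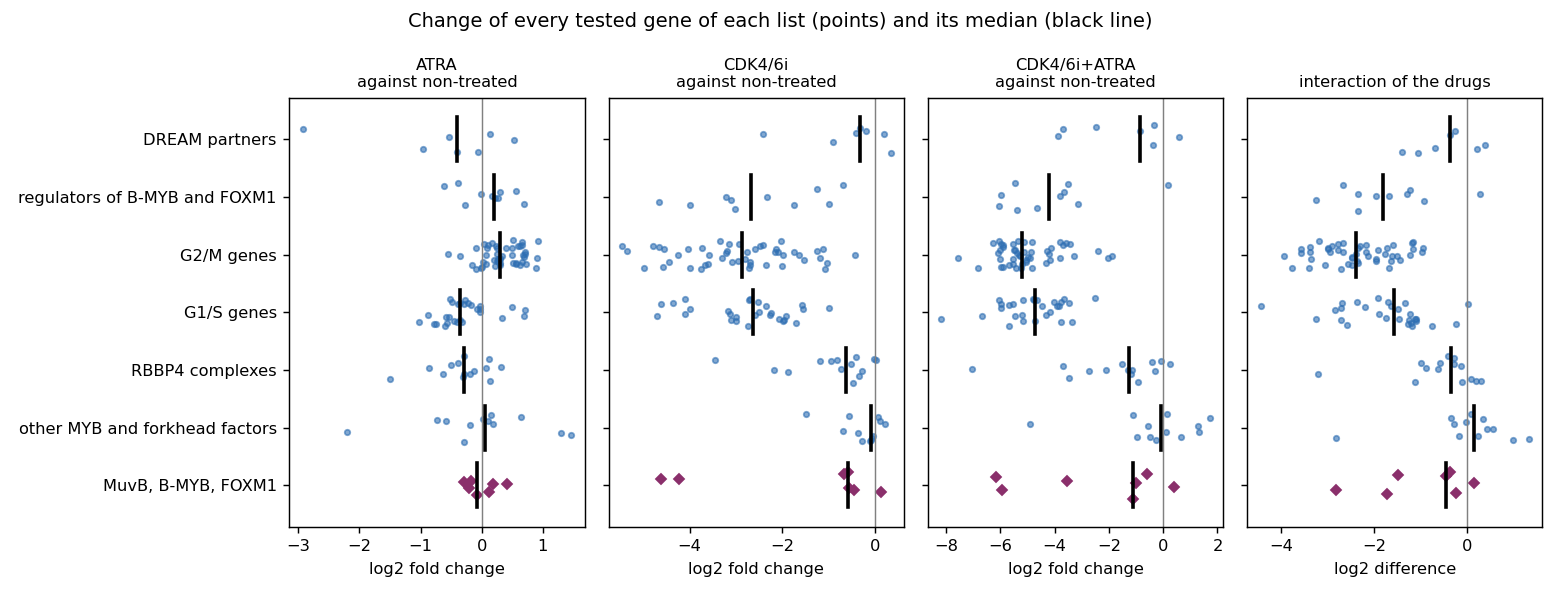
Log2 fold change of every tested gene of 6 lists (points) and of the 7 tested MuvB, B-MYB and FOXM1 genes (diamonds), with the median as a black line, for each of the 3 treatments against non-treated cells and for the interaction of the drugs (log2 difference). All 48 G2/M and 28 G1/S genes lie below 0 with CDK4/6i and with both drugs, and with ATRA the G2/M median is 0.30 and the G1/S median −0.35.

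The promoter letters of these lists were counted as well. Among the G2/M genes 42 of 48 matched RefSeq promoters, and 33 of the 42 (78.6%) held TTTGAA or TTCGAA in at least 1 listed window, against 16.4% of all promoters. Both a CHR and CCAAT stood in the same window for 31 of the 42 (73.8%), against 6.38% of all promoters. Among the G1/S genes, 2 of 23 (8.7%) held a CHR and 14 of 23 (60.9%) held 1 of the 3 E2F letters, against 2.74% of all promoters. Counted per window, since genes with several starts have more chances, 36 of 52 G2/M windows (69.2%) held a CHR and 15 of 33 G1/S windows (45.5%) an E2F match. The lists name genes known for these elements, so the shares describe them and are not independent evidence.

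RBBP4 also serves in complexes without MuvB, namely the histone chaperone CAF-1, PRC2, NuRD and SIN3. Of 14 genes of these complexes and the RBBP4 paralog RBBP7, 12 were lower and none higher with CDK4/6i (median −0.62, beside 27.9% and 28.3% of all genes), and 13 were lower with both drugs (median −1.24, beside 40.7%). With ATRA 10 were lower and 2 higher (median −0.29), beside 35.5% and 32.1%. The exception with both drugs was HDAC1, the deacetylase of NuRD and SIN3, which was 0.24 higher (edgeR adjusted p = 4.8e-08). The median of all genes in this comparison was 0.02 with TMM and −0.25 with library size alone, a shift about as large as this rise. CHAF1B, the middle subunit of CAF-1, had 575, 489 and 535 counts in non-treated cells, 70, 38 and 45 with CDK4/6i and 0, 1 and 7 with CDK4/6i+ATRA. EZH2, the methyltransferase of PRC2, fell with CDK4/6i (−2.17 on the log2 scale) and with both drugs (−3.48), and SAP30 of SIN3 fell with ATRA alone (−1.51), with CDK4/6i alone (−1.19) and with both drugs (−3.68). The fall of RBBP4 with both drugs (−1.11) was close to the median of this list.

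The genes most like each member were sought by Pearson's correlation of log2 CPM over the 12 libraries, among 9299 genes with a mean of at least 5 CPM. The correlations are descriptive: the points are 4 groups of 3 libraries, so they mainly reflect the 4 group means. MYBL2 was closest to CCNA2 (r = 0.9989), PRIM1, BRIP1, NCAPH2 and NSD2, and 78 genes had r above 0.99. FOXM1 was closest to FBXO5 (0.9979), CDK1, TK1, MKI67 and PHF19, with 32 genes above 0.99. LIN9 was closest to CTPS2 (0.9962), MBNL3, MAD2L1, GSTCD and RCCD1, with 16 above 0.99. The mean level of MAD2L1, a spindle checkpoint gene, was 178.5, 129.1, 77.6 and 5.873 CPM in non-treated, ATRA, CDK4/6i and CDK4/6i+ATRA cells. RBBP4 was closest to DNAJA1 (0.998), ICMT, YWHAQ, HNRNPD and RABL6, with 42 genes above 0.99.

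The remaining subunit genes had fewer such neighbours. LIN54 was closest to FADS2 (0.9749), TUBA4A, KIF23, NSL1 and GPSM2, and LIN52 to ING2 (0.9659), PPP1R8, ATPSCKMT, SNRPA and FTO. LIN37 reached at most 0.8871, with TXNDC11, followed by LOC124900605, MAPK8IP3, RNF169 and CLK3. None of these 3 had a gene above 0.99. Between members the highest correlation was that of FOXM1 with MYBL2 (0.986). LIN9 correlated with MYBL2 at 0.8625 and with RBBP4 at 0.9259, and LIN37 was negative with every other tested member (−0.3297 with LIN54 to −0.7435 with LIN52).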

How the data were processed

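RNA-Seq of HL60 cells covered 12 libraries in 4 groups. The authors trimmed the reads (Trimmomatic 0.33 in the submitters' processing notes), aligned them to hg38 under the NCBI RefSeq annotation with STAR 2.7.11a and deposited raw gene counts, without normalization. The paper names RSEM as their source, while the table has the layout of featureCounts. The deposited table also holds the exon positions and summed length of each gene. ChIP-Seq data were not used here.

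Members, lists, rules and alternatives were chosen with earlier results of these data known. All members were named, and genes of lists of 12 or fewer could be named. For longer lists these were the 3 largest falls and rises with both drugs, the 3 largest interactions and up to 4 exceptions, and for likeness the 5 nearest genes. Genes passing filterByExpr (13318; 31154 had no count) were normalized by TMM and tested with edgeR 4.0.16 (R 4.3.3), quasi-likelihood F test, 4 groups, 8 residual degrees of freedom, Benjamini-Hochberg adjustment, threshold 0.05. The common biological coefficient of variation was 3.7%. Replicates differed beyond sampling noise (chi-square per degree of freedom 1.81 to 6.22). SEs were derived from the fold change and its F statistic, and can understate the spread between libraries where the fold change is large. Log2 CPM used a prior count of 2. The test was run on simulated data in which few genes changed, unlike here, so that check does not cover the scaling of libraries. Alternatives were DESeq2 1.42.0 or only its size factors, scaling by library size alone, a minimum of 10 counts per library or no filter, a replicate block, a fit of the compared groups only, and leaving out each library. Exact tests used scipy 1.17.1 and figures matplotlib 3.10.9. A marker gene among the lists is not reported here.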

Additional observations from a re-analysis of the deposited data

Results flagged for a closer look

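The effect of ATRA differed between cells without and with CDK4/6i for 5 of the 7 tested genes, by the interaction term of the edgeR fit, where 27.0% of all tested genes were called negative and 24.5% positive. For FOXM1 the log2 effect of ATRA was 0.18 without and −1.31 with CDK4/6i, a difference of −1.49 (adjusted p = 2.63e-07). For MYBL2 it was −0.21 and −1.93, a difference of −1.72 (adjusted p = 7.64e-17). LIN9 had the largest difference of the 7 (−2.81, adjusted p = 1.47e-19), from −0.08 without to −2.90 with CDK4/6i. LIN54 went from 0.41 to −0.06, a difference of −0.47 (adjusted p = 0.000631), and RBBP4 from −0.29 to −0.53, a difference of −0.25 (adjusted p = 0.000144). The 3 libraries in each group limit these estimates, and the interaction compares fold changes on a log scale.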

How the results depend on the processing

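Of 791 alternative values of the members' log2 fold changes, 782 kept their side of the threshold. A call was lost in 3, gained in 6 and reversed in 0. Some values that did not pass changed sign. With library size alone LIN37 with both drugs went from 0.26 to −0.02 against CDK4/6i and from 0.28 to −0.03 against ATRA. Its interaction went from 0.14 to −0.18. For LIN54 between CDK4/6i+ATRA and CDK4/6i, leaving out a library took −0.06 to as much as 0.04. All 9 changes of call concern LIN37, LIN52 or LIN54 and are given beside those genes, except LIN37 between CDK4/6i+ATRA and CDK4/6i, which passed in edgeR without CDK4/6i replicate 3 (0.38, adjusted p = 0.036). The counts of members and of all genes called stayed within 1.5 times in each of the 113 alternatives run, as did 677 of 678 list counts. All 35 alternatives of the MYBL2 to RBL2 ratio kept the sign of its log2 difference. Leaving out or rescaling a library could not change that sign, because scaling cancels in the ratio and the groups compared did not overlap. With the replicate block, 6 members were called lower with CDK4/6i, and 6 lower and 1 higher with CDK4/6i+ATRA, as without it, and the genes called for the interaction went from 6852 to 6775. The replicate numbers did not pair the libraries: deviations of same-numbered libraries correlated at −0.0702 to 0.0328, with 0 of 18 pairs over 0.1, and 1 of 12 libraries correlated best with its own number. Depth limits MYBL1, and LIN37 and LIN52 rest on 78 to 125 and 55 to 226 reads per library.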

Other observations

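The MYB and forkhead genes other than the MuvB partners moved in both directions, in numbers near those of all genes. Of 12 tested, 4 were lower and 2 higher with CDK4/6i (median log2 fold change −0.08), beside 27.9% and 28.3% of all genes. With ATRA 5 were lower and 5 higher (median 0.06), beside 35.5% and 32.1%, and with CDK4/6i+ATRA 6 were lower and 5 higher (median −0.08), beside 40.7% and 41.0%. MYB, which encodes c-MYB, a factor of immature blood cells, had counts of 5598, 5536 and 6007 in non-treated cells, 1210, 1235 and 1348 with ATRA, 7018, 6166 and 6323 with CDK4/6i and 108, 124 and 154 with CDK4/6i+ATRA. On the log2 scale MYB changed by −2.21 ± 0.0407 with ATRA, by 0.12 ± 0.0357 with CDK4/6i and by −4.92 ± 0.0585 with both drugs (edgeR adjusted p = 1.1e-41, 0.00353 and 2e-50), and the interaction was −2.83 ± 0.0785 (adjusted p = 2.3e-32). FOXO3 and FOXO4, forkhead factors active in resting cells, rose with ATRA (1.29 and 0.64) and with both drugs (1.72 and 1.29). With both drugs FOXK1 and FOXK2 fell (−1.10 and −0.97) and FOXN2 rose (0.65).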
